A study of Mus musculus with 8 samples.

Results

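The 10 genes described here (*Dazl*, *Ddx4*, *Mael*, *Asz1*, *Tdrd1*, *Sycp1*, *Sycp3*, *Hormad1*, *Tex101* and *Taf7l*) are germline genes whose promoters are methylated in somatic cells. They were taken by symbol from the 26263 genes counted in each library, by a rule that uses no measured value. Expression was measured by polyA RNA-seq in mouse embryonic stem cells (ESCs) and in the neural precursor cells (NPCs) obtained from them at day 12 of *in vitro* corticogenesis, a differentiation towards cortical precursors. The B/J line BJE2 (genotype C57BL/6 x JF1) has the C57BL/6 strain as mother and JF1 as father, and the J/B line JBE6 (genotype JF1 x C57BL/6) comes from the reciprocal cross. Both lines are male and each cross is 1 ESC line. ESCs grew with LIF, BMP4 and a GSK3-β inhibitor. NPCs were obtained on Matrigel with B27 and dorsomorphin homolog 1. Each of the 4 groups (ESC B/J, ESC J/B, NPC B/J and NPC J/B) has 2 libraries, 8 in all. The labels do not say that they came from separate cultures, so p-values measure only the spread between these libraries, which may be technical. DNA methylation is no part of these counts, and whether these promoters were methylated in either stage was not analysed here.

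Germ cells carry a programme that other cells keep shut. At many of its CpG-rich promoters, a Polycomb complex (PRC1.6, built around E2F6 with DP1 and MGA with MAX) binds E2F-type sites and E-boxes around implantation, and DNA methylation placed there by DNMT3B then holds the genes off in somatic lineages. ESCs stand before or within this transition, and low levels of germline transcripts in ESC cultures are well known.

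The promoters are shown because CpG density and these binding motifs are what this class of genes is known for. They are the RefSeq windows from 250 bases before to 50 bases after a start site, taken from a GRCm38.p6 table, which matched the GRCm39 genome exactly for all 10 genes. The stretches printed below end before the annotated start sites and run 5′ to 3′ on the strand of the gene, with every CpG in capitals. *Sycp1*, *Sycp3*, *Hormad1* and *Tdrd1* are given as genes that fell and hold an E-box, *Dazl* as one that holds neither motif, and *Mael* as the tested gene whose change did not pass.
Sycp1, GRCm39 chr3:102843456-102843666, minus strand: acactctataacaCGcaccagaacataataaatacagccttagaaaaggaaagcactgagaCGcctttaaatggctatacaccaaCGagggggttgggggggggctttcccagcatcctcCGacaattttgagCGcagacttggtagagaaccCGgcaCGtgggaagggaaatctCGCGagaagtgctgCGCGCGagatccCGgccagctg
Sycp3, GRCm39 chr10:88295199-88295430, plus strand: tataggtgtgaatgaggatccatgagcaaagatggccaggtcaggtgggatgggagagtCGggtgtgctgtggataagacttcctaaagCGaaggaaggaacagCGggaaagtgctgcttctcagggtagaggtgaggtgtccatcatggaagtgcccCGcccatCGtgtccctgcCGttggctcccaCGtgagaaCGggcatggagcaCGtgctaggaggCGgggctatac
Hormad1, GRCm39 chr3:95466738-95466938, plus strand: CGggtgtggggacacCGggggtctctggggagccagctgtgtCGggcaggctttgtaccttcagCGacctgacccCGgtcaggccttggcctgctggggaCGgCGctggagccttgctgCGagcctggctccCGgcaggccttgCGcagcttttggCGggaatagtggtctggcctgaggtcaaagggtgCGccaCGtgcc
Tdrd1, GRCm39 chr19:56814391-56814640, plus strand: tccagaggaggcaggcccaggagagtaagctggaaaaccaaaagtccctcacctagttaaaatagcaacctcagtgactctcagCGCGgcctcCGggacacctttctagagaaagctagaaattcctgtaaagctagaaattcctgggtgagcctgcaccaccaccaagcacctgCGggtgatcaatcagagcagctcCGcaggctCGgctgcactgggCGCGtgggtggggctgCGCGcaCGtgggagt
Dazl, GRCm39 chr17:50600665-50600898, minus strand: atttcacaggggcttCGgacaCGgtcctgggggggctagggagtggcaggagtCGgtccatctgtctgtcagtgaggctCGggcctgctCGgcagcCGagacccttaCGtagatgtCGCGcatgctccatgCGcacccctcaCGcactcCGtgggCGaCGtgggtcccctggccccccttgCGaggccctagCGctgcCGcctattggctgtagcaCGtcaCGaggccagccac
Mael, GRCm39 chr1:166066332-166066563, minus strand: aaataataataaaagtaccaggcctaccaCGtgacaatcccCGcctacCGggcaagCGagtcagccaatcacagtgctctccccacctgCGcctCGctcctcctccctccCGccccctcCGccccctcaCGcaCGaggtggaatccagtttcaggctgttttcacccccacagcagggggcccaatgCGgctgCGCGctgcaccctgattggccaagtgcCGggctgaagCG

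Within the whole windows, the 10 promoters held a median of 20.5 CpGs, against a median of 13 over 17492 protein-coding promoters of the same table. Their median ratio of observed to expected CpGs was 0.782, against 0.577, and their median GC content was 60.3%, against 56.3%. *Ddx4* had the most CpGs (38, observed/expected 0.978) and *Sycp3* the fewest (15, 0.666). Each of the 10 genes was given its RefSeq window nearest to the GENCODE start, and every other gene its first listed window. The promoters compared against were not matched for CpG content. Both motifs were searched on both strands with no mismatch. The E-box CACGTG, which is its own reverse complement and holds a CpG, occurred in 7 of the 10 windows, against 7.90% of all promoters. It began 94 bases before the start site of *Sycp1*, 64 and 43 bases before that of *Sycp3*, 57 and 20 before *Hormad1*, 49 before *Taf7l*, 29 before *Ddx4*, 11 before *Tdrd1* and 223 before *Mael*. In the sequences above it reads caCGtg. The match 20 bases before the start of *Hormad1* lies beyond the printed stretch. The E2F-type motif TCCCGCC, which also holds a CpG and overlapped no E-box, occurred in *Ddx4*, *Mael* and *Hormad1* (3 of 10, against 14.9% of all promoters). These 3 genes held both motifs, as did 1.66% of all promoters. The windows of *Dazl*, *Tex101* and *Asz1* held neither. A match describes letters and not binding.

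**Figure D1:**
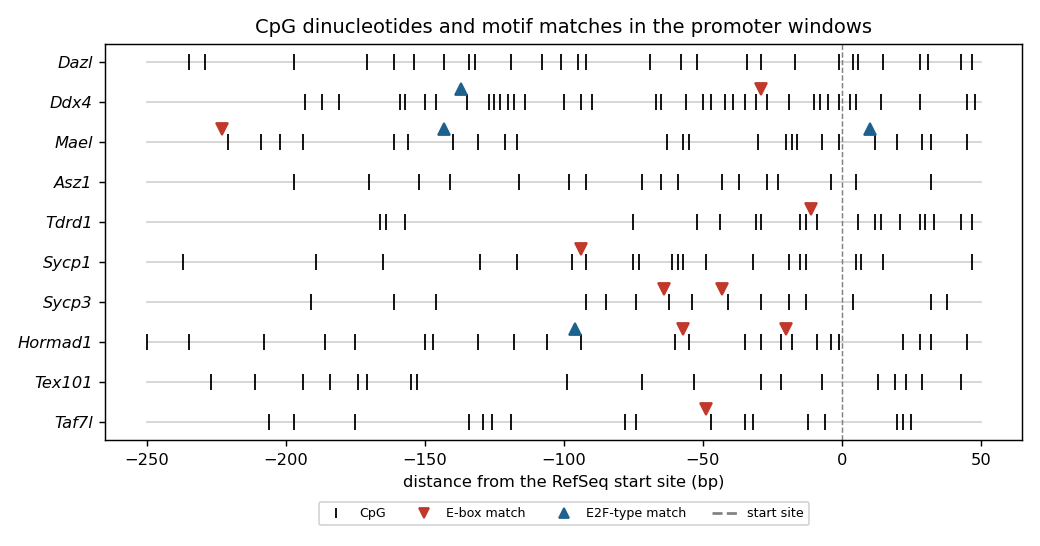
Positions of CpG dinucleotides (ticks), E-box matches (red triangles) and E2F-type matches (blue triangles) by distance in bp from the RefSeq start site in each of the 10 promoter windows. E-box matches lie within 94 bp before the start in 6 genes and 223 bp before it in *Mael*, and *Dazl*, *Asz1* and *Tex101* have no match to either motif.

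The 8 libraries held 22537138 to 32706015 reads assigned to genes. Levels are given as TMM-normalised CPM (reads of a gene scaled to the size of its library), on which 1 count is worth 0.0256 to 0.0533 CPM. Of the markers of each stage, *Pou5f1* was 1942 ± 420 CPM in ESCs (SD, n = 4) and 26.3 ± 15.8 CPM in NPCs (SD, n = 4), and *Nes*, which encodes nestin, was 33.9 ± 14.4 and 151 ± 75.3 CPM. All 8 pluripotency markers were lower in NPCs and 7 of 8 neural precursor markers higher, and all 9 trophoblast markers were also higher, with *Tpbpa* at 0 counts in every ESC library and 141 to 395 CPM in NPCs. *Pax6* did not pass (edgeR adjusted p = 0.0606). NPC B/J replicate 1 stood apart. Its neural precursor markers summed to 187 CPM, beside 455 to 695 CPM in the other NPC libraries. Its trophoblast markers summed to 3141 CPM, beside 1136 to 1682 CPM in the other NPC libraries. Its neuron markers summed to 274 CPM, beside 766 to 1520 CPM in the other NPC libraries and 302 to 445 CPM in ESCs. Of the 8 neuron markers, 7 were called higher in NPCs and 1 lower. The lower one, *Stmn2*, made up much of the ESC sums, at 164 to 283 CPM in ESCs and 27.5 CPM in NPC B/J replicate 1. Libraries also stood apart in germline and early embryonic transcripts. The summed level of 8 markers of 2-cell-like cells was 69.0 CPM in ESC J/B replicate 1 and at most 0.217 CPM in the other 3 ESC libraries. The summed level of 8 markers of postmeiotic male germ cells was 8.66 CPM in NPC B/J replicate 1 and 3.56 CPM in NPC J/B replicate 1, but 0.511 and 0.0969 CPM in the replicates numbered 2.

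In ESCs the 10 genes were read at low to moderate levels. Per kilobase of the canonical transcript, *Ddx4* had the highest mean level (6.00 CPM per kb), followed by *Dazl* (4.08), *Hormad1* (3.76), *Sycp3* (2.73), *Mael* (1.99), *Sycp1* (1.10), *Taf7l* (0.676), *Tdrd1* (0.436), *Tex101* (0.349) and *Asz1* (0.0379). The ranges over the 4 ESC libraries overlapped for every pair of neighbours in this order. Without ESC J/B replicate 1 the mean of *Dazl* was 1.78 CPM per kb, below *Hormad1* (3.05) and *Sycp3* (2.27), that of *Taf7l* 0.410 and that of *Tex101* 0.105. In NPCs the highest mean was that of *Mael* (1.75 CPM per kb), before *Ddx4* (0.752), *Dazl* (0.712), *Hormad1* (0.590) and *Sycp3* (0.578). The ranges of these 5 overlapped from one to the next, and *Mael* was 2.74 and 3.61 CPM per kb in the libraries numbered 1 but 0.529 and 0.129 in those numbered 2, below *Ddx4* (0.593 and 0.332). *Dazl* was 2.12 CPM per kb in NPC B/J replicate 2 and 0.0759 to 0.479 in the other NPC libraries. For *Hormad1* these values were 1.40 and 0.179 to 0.415. *Sycp1* was the ninth in NPCs, at 0.0491 CPM per kb.

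The main question was how these genes changed from ESCs to NPCs. Of the 10 genes, 8 had enough counts to be tested, 7 of them fell and none rose. Over all 16399 genes tested, 31.9% were called lower and 37.5% higher. The median log2 fold change of the 8 was -2.47, beside 0.17 over all genes tested (-1.98 beside 0.65 on library totals). Among them *Ddx4*, *Sycp1*, *Sycp3* and *Hormad1* were called in all 20 alternative settings. Without NPC B/J replicate 1, 5 were called lower, *Dazl* and *Taf7l* being lost. Every ESC library stood above every NPC library for 6 of the 10 genes (*Ddx4*, *Sycp1*, *Sycp3*, *Taf7l*, *Hormad1* and *Tdrd1*), which was so for 31.2% of all genes tested. On library totals *Taf7l* overlapped and 5 remained. In these bulk samples, fewer cells with a transcript and less transcript per cell cannot be told apart.

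**Figure D2:**
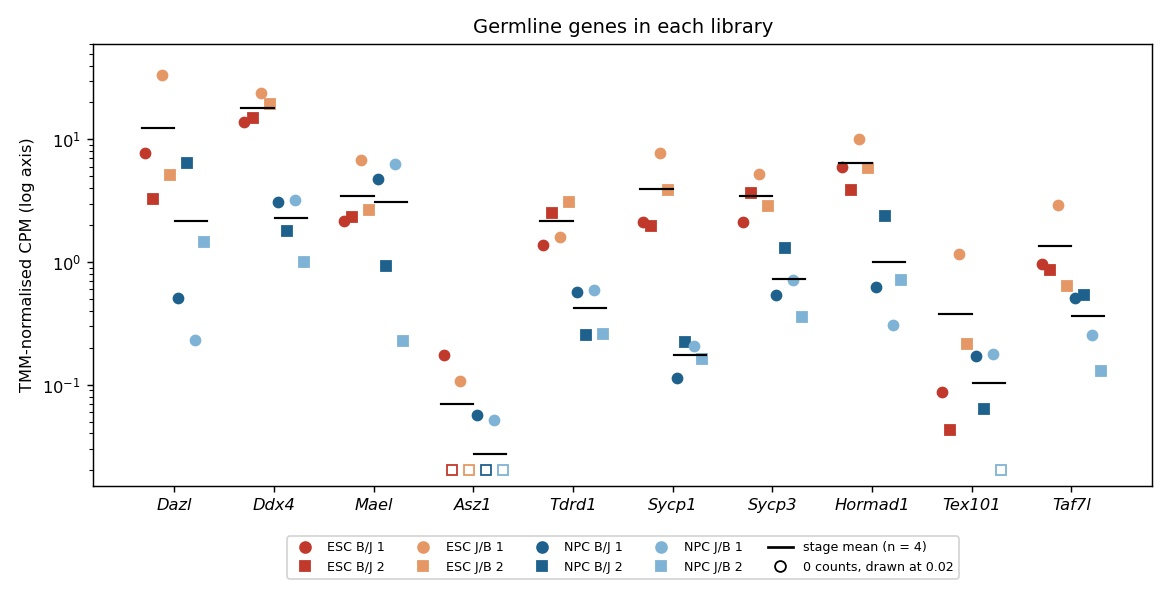
TMM-normalised CPM (log axis) of each germline gene in the 8 libraries, with ESCs in red and orange, NPCs in blue, circles for replicate 1 and squares for replicate 2. Bars are stage means (n = 4), and open symbols are libraries with 0 counts. ESC and NPC libraries separate fully for *Ddx4*, *Tdrd1*, *Sycp1*, *Sycp3*, *Hormad1* and *Taf7l*, and overlap for *Dazl*, *Mael*, *Asz1* and *Tex101*.

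Of the 5 RNA-binding and piRNA pathway genes, 4 were tested and 3 fell (*Ddx4*, *Dazl* and *Tdrd1*), beside the 31.9% of all genes tested. *Ddx4* (chr13:112734867-112789009, minus strand; GRCm39 for this and all positions) encodes the Vasa helicase of germ granules. It was read at 13.8 and 15.05 CPM in the B/J ESC libraries and at 23.9 and 19.6 CPM in the J/B ESC libraries. In NPCs it was 3.08 and 1.79 CPM in B/J and 3.20 and 1.001 CPM in J/B. Every NPC library was thus below every ESC library, and each kept between 5.53% and 17.7% of the ESC mean. *Ddx4* fell by a log2 fold change of -2.96 (SE 0.400, adjusted p = 3.93e-04 in the quasi-likelihood test of edgeR).

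*Dazl* (chr17:50586366-50600664, minus strand) encodes an RNA-binding protein that regulates translation in germ cells. Its ESC levels were 7.72 and 3.29 CPM in B/J and 33.4 and 5.16 CPM in J/B. Its NPC levels were 0.513 and 6.45 CPM in B/J and 0.230 and 1.45 CPM in J/B. The stages overlapped, since NPC B/J replicate 2 lay above ESC B/J replicate 2 and ESC J/B replicate 2, and it stood at 52.0% of the ESC mean, or at 119.6% of the mean without ESC J/B replicate 1. Its log2 fold change was -2.60 (SE 0.961, adjusted p = 0.0413 from edgeR). The call was lost in 11 of 20 alternative settings, among them leaving out ESC B/J replicate 1 (-2.22), ESC B/J replicate 2 (-2.83), ESC J/B replicate 1 (-1.65), NPC B/J replicate 1 (-2.16) or NPC J/B replicate 1 (-2.20). In fits added after the data were seen, it was -0.38 in the 4 libraries numbered 2 alone and -5.45 in those numbered 1 alone. The same NPC B/J replicate 2 had the highest summed pluripotency markers of the NPC libraries, at 292 CPM or 4.07% of the ESC mean, beside 81.7 to 135 CPM in the others. The part of remaining pluripotent cells in the *Dazl* level was not tested.

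*Tdrd1* (chr19:56814641-56858444, plus strand) encodes a Tudor scaffold that binds PIWI proteins. It was 1.39 and 2.52 CPM in B/J ESCs and 1.5999 and 3.07 CPM in J/B ESCs. NPC levels were 0.570 and 0.255 CPM in B/J and 0.588 and 0.258 CPM in J/B. All NPC libraries were below all ESC libraries, and within each stage the libraries with the same number lay close together. *Tdrd1* had a log2 fold change of -2.33 (SE 0.534, adjusted p = 0.00519 from edgeR), and only the 4 libraries numbered 1 taken alone ended the call (-1.35, edgeR adjusted p = 0.158).

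*Mael* (chr1:166028770-166066331, minus strand) encodes Maelstrom, a protein needed for piRNA-guided silencing of transposons. Its ESC levels were 2.17 and 2.31 CPM in B/J and 6.83 and 2.64 CPM in J/B. Its NPC levels were 4.78 and 0.925 CPM in B/J and 6.32 and 0.226 CPM in J/B. The stages overlapped: both NPC libraries numbered 1 stood above 3 of the ESC libraries, and both numbered 2 below all of them. For *Mael* the log2 fold change was -0.09 (SE 0.900, adjusted p = 0.937 from edgeR). Without both NPC libraries numbered 1 it was -2.82 (edgeR adjusted p = 0.0174), and in the libraries numbered 1 alone it was 0.51. These 2 NPC libraries are those with the raised postmeiotic markers, of which 5 of 8 had 0 counts in all ESC libraries and *Prm1*, *Prm2*, *Tnp2*, *Odf1*, *Acrv1* and *Spaca1* had 0 counts in both NPC libraries numbered 2. Their part in the level of *Mael* was not tested. Of the 8 tested germline genes, *Mael* and *Tdrd1* were over 2-fold higher in both NPC libraries numbered 1 than in both numbered 2, as were 2.58% of all genes tested. This pattern was chosen after the values were seen.

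*Asz1* (chr6:18050848-18109060, minus strand), whose product anchors germ granules at mitochondria, was hardly read. ESC libraries had 4 and 0 counts in B/J and 2 and 0 counts in J/B, and NPC libraries had 2 and 0 counts in both crosses. The libraries numbered 1 held every one of these reads. The totals were 6 and 4 counts, and the exact two-sided permutation test over the 4 against 4 libraries gave p = 0.543, where the smallest possible is 0.0286. A count of 0 allows up to 3 counts, which is 0.0957 to 0.128 CPM in the libraries numbered 2. A difference was not detectable at this depth.

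The 3 members of the synaptonemal complex and meiotic chromosome axis fell, beside 31.9% of all genes tested. *Sycp1* (chr3:102725709-102843455, minus strand) encodes the transverse filament that zips paired chromosomes together. It was 2.13 and 1.97 CPM in B/J ESCs and 7.79 and 3.84 CPM in J/B ESCs. In NPCs it was 0.114 and 0.223 CPM in B/J and 0.205 and 0.161 CPM in J/B. These 4 NPC values lay close together, between 2.90% and 5.69% of the ESC mean, the narrowest range of the 10 genes. They rest on few reads, 4 and 7 counts in B/J and 8 and 5 counts in J/B. The ESC mean was 3.93 CPM, or 2.64 CPM without ESC J/B replicate 1. A log2 fold change of -4.26 (SE 0.469, adjusted p = 1.40e-04 from edgeR) was the largest of the 8.

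*Sycp3* (chr10:88295431-88309099, plus strand) encodes a component of the axial and lateral elements. ESC levels were 2.13 and 3.63 CPM in B/J and 5.17 and 2.86 CPM in J/B. NPC levels were 0.541 and 1.31 CPM in B/J and 0.716 and 0.355 CPM in J/B. The groups did not overlap, and the log2 fold change was -2.26 (SE 0.491, adjusted p = 0.00408 from edgeR). Exons of *Chpt1* on the opposite strand overlap 661 bases of its exons, taken over all its annotated transcripts. The overlap within its 1264-base canonical transcript was not measured. The sources used here do not give the strand setting of the counting. *Chpt1* moved the other way, from 6.21 to 11.1 CPM in ESCs to 26.6 to 67.2 CPM in NPCs (log2 fold change 2.31, edgeR adjusted p = 1.51e-04), and its part in the *Sycp3* counts was not tested.

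*Hormad1* (chr3:95466938-95495179, plus strand) encodes a HORMA-domain protein of unpaired chromosome axes. *Hormad1* was 5.90 and 3.89 CPM in B/J ESCs and 10.1 and 5.84 CPM in J/B ESCs. NPC levels were 0.627 and 2.39 CPM in B/J and 0.307 and 0.711 CPM in J/B. NPC B/J replicate 2 was the highest NPC library here as for *Dazl*, at 37.2% of the ESC mean, yet below every ESC library. It fell by a log2 fold change of -2.83 (SE 0.539, adjusted p = 0.00216 from edgeR). Exons of predicted long non-coding RNAs on the opposite strand overlap *Hormad1* (273 bases), *Mael* (135 bases) and *Tex101* (95 bases).

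The other members are a transcription factor subunit and a surface protein. *Taf7l* (chrX:133360861-133377290, minus strand) encodes a germ cell paralogue of the TFIID subunit TAF7. It was 0.955 and 0.855 CPM in B/J ESCs and 2.93 and 0.639 CPM in J/B ESCs. NPC levels were 0.513 and 0.543 CPM in B/J and 0.256 and 0.129 CPM in J/B. The stages did not overlap, but ESC J/B replicate 2 and NPC B/J replicate 2 were near each other. The change was -1.97 on the log2 scale (SE 0.600, adjusted p = 0.0191 from edgeR), and the call was lost in 10 of 19 alternative settings. Among these were leaving out ESC B/J replicate 1 (-1.92), ESC J/B replicate 1 (-1.24), NPC B/J replicate 1 (-1.95), NPC B/J replicate 2 (-1.99) and NPC J/B replicate 2 (-1.77). *Taf7l2*, a related copy counted as a gene of its own, had a log2 fold change of -1.18 (edgeR adjusted p = 0.316), and reads shared between the copies are uncertain.

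*Tex101* (chr7:24367432-24376100, minus strand), which encodes a GPI-anchored germ cell surface protein, was under the count filter. ESC libraries had 2 and 1 counts in B/J and 22 and 5 counts in J/B, and NPC libraries 6 and 2 counts in B/J and 7 and 0 counts in J/B. ESC J/B replicate 1 held most of the ESC total of 30 counts, beside 15 in NPCs. The stages overlapped, and the exact two-sided permutation test gave p = 0.429 for 0.379 ± 0.534 against 0.103 ± 0.0867 CPM (SD, n = 4 each).

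Seen by library, ESC J/B replicate 1 was the highest of the ESC libraries for 7 of the 8 tested genes, *Tdrd1* being the exception, beside 30.1% of all genes tested. It was over 2-fold above every other ESC library for 4 of the 8 (*Dazl*, *Mael*, *Sycp1* and *Taf7l*), beside 6.14% of all genes tested. This library held the markers of 2-cell-like cells, all 8 of which were highest there, and their part in the germline levels was not tested. Of the de novo methyltransferases, *Dnmt3b* was lowest there (143 CPM, beside 329 to 755 CPM in the other ESC libraries) and *Dnmt3a* highest (460 CPM, beside 109 to 159 CPM), and their part was not tested either. Without ESC J/B replicate 1, 5 germline genes fell (*Ddx4*, *Sycp1*, *Sycp3*, *Hormad1* and *Tdrd1*). NPC B/J replicate 2 was the highest NPC library for 5 of the 8 (*Dazl*, *Sycp1*, *Sycp3*, *Taf7l* and *Hormad1*), beside 12.5% of all genes tested. These library patterns were chosen after the values were seen and carry no test.

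**Figure D3:**
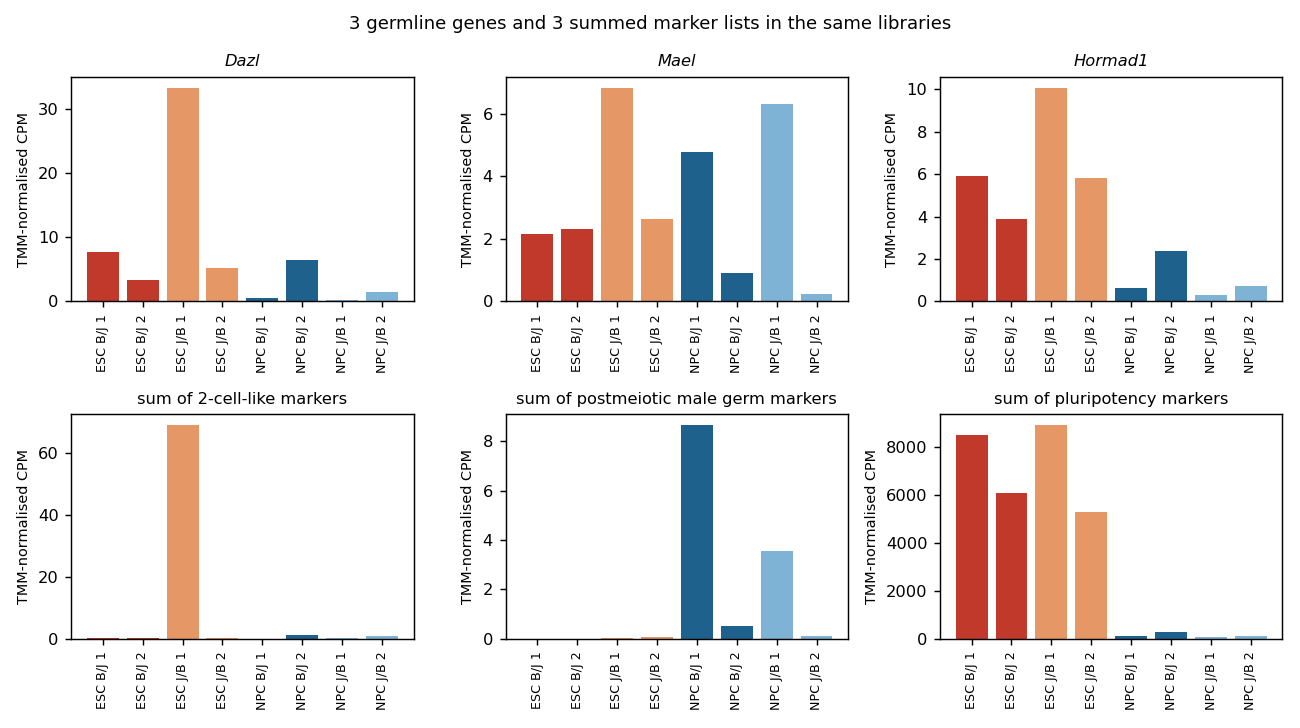
TMM-normalised CPM (linear axes from 0) of *Dazl*, *Mael* and *Hormad1* and of 3 summed marker lists in each library, with 1 bar per library. The 2-cell-like markers stand at 69.0 CPM in ESC J/B replicate 1, where *Dazl*, *Mael* and *Hormad1* also peak, and the postmeiotic markers stand at 8.66 and 3.56 CPM in the NPC libraries numbered 1, where *Mael* is also high.

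The reciprocal crosses asked whether the fall was the same in both lines. Within J/B, 7 of 8 genes were called lower (25.3% of all genes tested), with log2 fold changes of -4.95 for *Sycp1*, -4.53 for *Dazl*, -3.97 for *Hormad1*, -3.36 for *Ddx4*, -3.16 for *Taf7l*, -2.88 for *Sycp3* and -2.44 for *Tdrd1*. Of 18 alternative settings, 6 lost the call of *Dazl* and 5 that of *Tdrd1*. Scaling on housekeeping genes lost both, library totals lost *Tdrd1*, and the fit with no count filter lost *Dazl*. Leaving out NPC J/B replicate 2 left 3 calls, with *Dazl* at -6.36 (edgeR adjusted p = 0.0606), *Sycp3* at -2.48 (0.0762), *Taf7l* at -2.77 (0.110) and *Tdrd1* at -1.99 (0.142) not passing. Leaving out NPC J/B replicate 1 took the calls of *Dazl* (-3.74, 0.137) and *Taf7l* (-3.75, 0.0539), and leaving out ESC J/B replicate 1 did the same, with *Dazl* at -2.63 (edgeR adjusted p = 0.167) and *Taf7l* at -1.70 (0.156). Within B/J, 3 were called lower (25.6% of all genes tested): *Sycp1* (-3.58), *Ddx4* (-2.57) and *Tdrd1* (-2.23). The first 2 were called in all 18 alternative settings, and the call of *Tdrd1* was lost in 7, among them library totals, housekeeping genes and each B/J library left out (edgeR adjusted p up to 0.179). There *Hormad1* was -1.70 (edgeR adjusted p = 0.0793, called by DESeq2 and limma-voom, and -2.96 without NPC B/J replicate 2), *Sycp3* -1.64 (0.0719), *Taf7l* -0.77 (0.442) and *Dazl* -0.67 (0.675). A fit with a term for the replicate number within each stage was added after the data were seen. It called 5 lower in B/J, among them *Hormad1* and *Dazl* (edgeR adjusted p = 0.0309). In the other 17 of 18 alternative settings *Dazl* was not called there. *Mael* was 0.35 within B/J (edgeR adjusted p = 0.828) and -0.52 within J/B (0.740), where it was -4.38 without NPC J/B replicate 1 (0.0396).

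That difference between the crosses did not pass its own test. The interaction of stage and cross was called for none of the 8 (0% of all genes tested), at an unadjusted p below 0.05 for 0 in edgeR and 2 in DESeq2, which called none. Its log2 estimates were negative for all 8, from -3.86 (SE 1.88) for *Dazl*, -2.39 (1.18) for *Taf7l* and -2.27 (1.03) for *Hormad1* to -0.21 (1.04) for *Tdrd1*, with an edgeR adjusted p of 1 for each. Over all genes tested the median interaction estimate was -0.0185. The 8 estimates share their libraries, and ESC J/B replicate 1 was the highest ESC library for 7 of the 8 genes. The sign and size moved with single libraries: *Dazl* was -1.13 without NPC B/J replicate 2, and without NPC B/J replicate 1 *Mael* was 0.74 and *Tdrd1* 0.46. In ESCs, J/B against B/J gave 0 calls among the 8 in edgeR, DESeq2 and limma-voom (0% of all genes tested in edgeR). *Sycp1* alone had an unadjusted p below 0.05, being higher in J/B by a log2 fold change of 1.502 (SE 0.567, edgeR adjusted p = 1). In NPCs there were also 0 calls (0.0061% of all genes tested), with 0 at an unadjusted p below 0.05 in edgeR and 1 in DESeq2. Each cross is 1 line, so a difference between crosses and one between lines cannot be told apart.

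**Figure D4:**
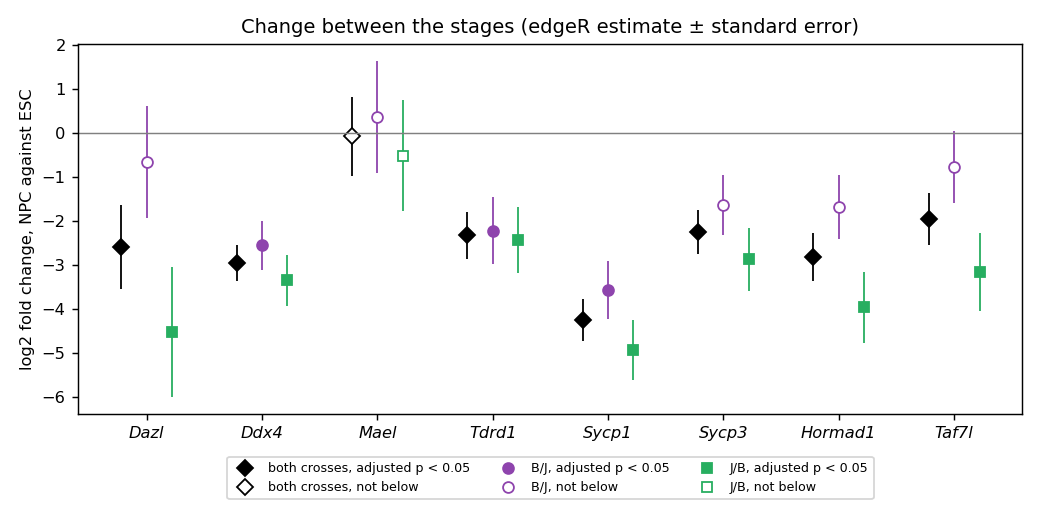
Log2 fold change of NPCs against ESCs (edgeR estimate ± standard error) for the 8 tested genes over both crosses (black), within B/J (purple) and within J/B (green). Filled symbols have an adjusted p below 0.05. *Sycp1*, *Ddx4* and *Tdrd1* are filled in both crosses, *Dazl*, *Sycp3*, *Hormad1* and *Taf7l* in J/B only, and *Mael* has open symbols near 0.

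Counts of calls in other lists are to be read against the 31.9% lower and 37.5% higher among all genes tested. Of 21 other genes of the meiotic chromosome programme, 18 were tested, 11 fell and 2 rose. Their median log2 fold change was -2.39 (-1.92 on library totals and -1.77 on housekeeping genes). Among genes with a mean of at least 1 CPM in a stage, here and in the lists that follow, the largest falls were those of *Mei4* (-3.76), which acts in meiotic break formation, *Hormad2* (-3.64), the paralogue of *Hormad1*, and *Syce1* (-3.38), a central element protein. *Dmc1*, the meiotic recombinase, was 11.2 ± 3.18 CPM in ESCs and 1.13 ± 0.656 CPM in NPCs (SD, n = 4 each). The MutS homologue *Msh5* rose (3.31), from 0.461 to 4.62 CPM. Of 18 other piRNA pathway genes, 17 were tested, 9 fell and 4 rose, with a median of -1.78 (-1.29 and -1.11 on these scalings). *Tdrd12* (-5.11), *Pnldc1* (-4.69), which trims piRNA ends, and *Rnf17* (-4.27) fell most. *Tdrd6* (4.88), *Tdrd7* (4.18) and *Tdrkh* (2.20) rose most. *Tdrd6* was 5.01 and 7.83 CPM in the NPC libraries numbered 1 and 0.287 and 0.517 CPM in those numbered 2, whereas *Tdrd7* was 35.2 to 57.9 CPM in all 4.

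Of 12 other germline genes held by promoter methylation, 8 fell and 1 rose. Their median was -1.68 (-1.20 on library totals and -1.05 on housekeeping genes). *Rpl10l* (-5.52), a ribosomal protein retrogene, *Stk31* (-4.73) and *Sohlh2* (-3.95), a germ cell transcription factor, fell most. *Tuba3b* (4.57) rose, at 8.03 and 9.21 CPM in the NPC libraries numbered 1 and 0.383 and 0.291 CPM in those numbered 2. All 12 were highest, among ESC libraries, in ESC J/B replicate 1. Of 7 factors of primordial germ cells, which precede the genes above in the germline, 5 fell, with *Dppa3* (-5.78), *Prdm14* (-5.71) and *Dnd1* (-3.66) in front, and several of these are also expressed in pluripotent cells. The other 2 were *Tfap2c* (0.90, edgeR adjusted p = 0.0520; 91.7 ± 38.1 and 187 ± 108 CPM) and *Prdm1* (1.11, 0.0714; 6.31 ± 3.92 and 14.5 ± 6.43 CPM; SD, n = 4 each); on library totals, and on housekeeping genes, 2 of the 7 were called higher and 3 lower. Of 8 oocyte markers 2 were tested (*Zp3* and *Gdf9*), of which *Zp3*, a zona pellucida gene, was called, falling from 7.31 ± 2.40 to 0.0439 ± 0.0166 CPM (SD, n = 4 each). The lists were chosen with results of these data known, and their counts are a description.

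**Figure D5:**
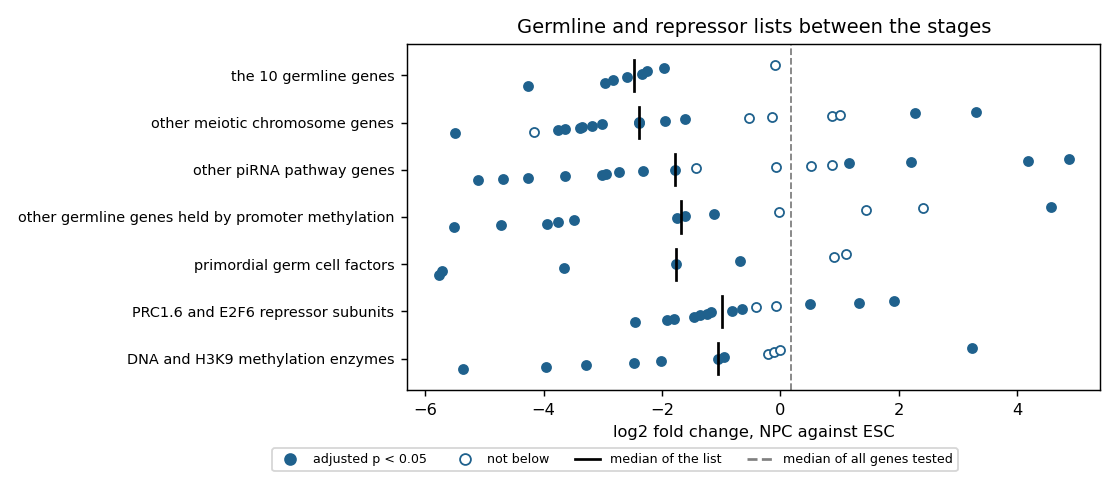
Log2 fold change of NPCs against ESCs for each tested gene of the 10 germline genes and of 6 other lists, with filled points at an adjusted p below 0.05, a black bar at the median of each list and a dashed line at the median of all genes tested (0.17). The medians of the germline lists lie between -2.47 and -1.68, and single genes such as *Tdrd6*, *Tdrd7*, *Msh5* and *Tuba3b* lie at the far right.

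Regulators of such promoters were also measured. Of 14 subunits and partners of the PRC1.6 complex, 9 fell and 3 rose, with a median log2 fold change of -0.99 (-0.52 on library totals and -0.37 on housekeeping genes), beside 31.9% lower and 37.5% higher among all genes tested. *L3mbtl2* (-2.46), *Hdac1* (-1.91) and *Wdr5* (-1.80) fell most. *Yaf2* (1.93), *Ring1* (1.33) and *E2f6* (0.51) rose, *E2f6* from 34.3 ± 4.79 to 48.9 ± 5.65 CPM (SD, n = 4 each). Of 11 enzymes that place DNA or H3K9 methylation, their cofactors and the TET dioxygenases that oxidise methylated DNA, 7 fell and 1 rose, with a median of -1.05 (-0.57 and -0.43 on these scalings). *Dnmt3l* (-5.36), the cofactor of the methyltransferases, *Tet1* (-3.96) and *Dnmt3b* (-3.28) fell most, and *Tet3* (3.25) rose. *Dnmt3a* (-0.015), *Ehmt1* (-0.11) and *Ehmt2* (-0.21) did not pass the test. *Dnmt3b* was 491 ± 304 CPM in ESCs and 50.1 ± 16.4 CPM in NPCs (SD, n = 4 each). Transcript levels do not give the activity of these proteins, and their relation to the germline genes was not tested.

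Counts of calls depended on the scaling between the stages. TMM factors were 0.820 to 0.885 in ESCs and 1.14 to 1.21 in NPCs. Over all genes tested, the median log2 change was 0.17 under TMM, 0.65 on library totals and 0.80 on the housekeeping genes *Gapdh*, *Gusb* and *Tbp*, and 54.0%, 70.1% and 75.0% of all calls were then higher in NPCs. On library totals and on housekeeping genes 5 of the 8 germline genes were called lower and 0 higher, beside 20.9% and 17.2% of all genes tested. *Dazl*, at -2.09 on library totals and -1.85 on housekeeping genes (edgeR adjusted p = 0.0832 and 0.124), and *Taf7l*, at -1.48 and -1.32 (0.0525 and 0.0692), did not pass there.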

How the data were processed

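Per the labels and the study's methods, libraries were made with the TruSeq Stranded mRNA or the NEBNext Ultra II kit and sequenced on a HiSeq4000 or a NovaSeq 6000. The sources used here do not tie kits or instruments to libraries, so their part in differences between the libraries numbered 1 and 2 was not tested. The authors aligned paired reads with TopHat2 to mm39 with JF1 SNP positions masked and a refGene-based annotation, and removed improper pairs and mapping qualities under 20. The submitters' processing notes name HTSeq, DESeq2 and edgeR without versions. The deposited values are raw counts per gene and library, not normalised, with 5 closing entries that name no gene. These were left out (no feature, 5.76% to 10.9%; ambiguous, at most 0.554%).

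The test was that of edgeR 4.0.16 under R 4.3.3 (TMM, filterByExpr with a minimum count of 10, 4 group means, robust quasi-likelihood test), with Benjamini-Hochberg adjustment across the 16399 genes that passed the filter and calls at an adjusted p below 0.05. DESeq2 1.42.0 and limma 3.58.1 (voom) were alternatives, beside RLE factors, library totals, housekeeping scaling, no filter, a mean of at least 1 CPM, a replicate block and leaving out each library. Where that left 1 library in a group, it was assumed to vary like the others. Fits of the libraries numbered 1 or 2 alone, without both NPC libraries numbered 1, and with a replicate block within each stage were added after the data were seen. *Tex101* and *Asz1*, under the filter, were compared by exact permutation. Replicates of a group differed by 60.3 to 84.7 times the chi-square of sampling noise per degree of freedom, so none was a duplicate. The limit of 3 counts for a count of 0 covers counting error only. Positions and canonical transcripts are from GENCODE vM39, promoters from RefSeq.

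All 10 genes are named, and from each other list at most the 3 largest rises and 3 largest falls with an adjusted p below 0.05 and a mean of at least 1 CPM in a stage, with *Pou5f1* and *Nes* as checks of the stage. *Dmc1*, *Tpbpa*, *Pax6*, *Stmn2*, *Tfap2c*, *Prdm1*, *Dnmt3a*, *Ehmt1*, *Ehmt2*, *Gdf9*, *Chpt1*, *Taf7l2* and the postmeiotic markers with 0 counts were named after their values were seen. The 10 genes, the lists and the tests were chosen with earlier results of these data known.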

Additional observations from a re-analysis of the deposited data

Results flagged for a closer look

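In a group of 4 libraries, a library whose gap to its nearest neighbour takes more of the whole range than the 95% limit of Dixon's test stands far from the others. This was looked for in ESCs and in NPCs for each gene and for the summed lists, 34 sets of 4 in all, and 6 sets had such a library. Chance alone gives about 1 in 20 independent sets, but these share their libraries and are no test. In all 6 it was ESC J/B replicate 1. *Dazl* stood at 33.4 CPM there, *Mael* at 6.83 CPM, *Taf7l* at 2.93 CPM and *Tex101* at 1.17 CPM, each the highest ESC value. The summed markers of 2-cell-like cells were 69.0 CPM, the highest, and the summed markers of neural precursors 38.8 CPM, the lowest. What sets this library apart was not tested.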

How the results depend on the processing

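The falls of *Ddx4*, *Sycp1*, *Sycp3* and *Hormad1* over both crosses held in all 20 alternatives. The germline genes called lower numbered 5 to 7 when each library was left out, 5 and 6 in the libraries numbered 1 or 2 alone, and 7 with DESeq2, voom or RLE factors. Within J/B they numbered 3 to 7 with each library left out, and within B/J 2 to 3. Leaving out each library gave *Mael* between -2.01 and 0.39 over both crosses, between -1.27 and 1.10 in B/J and between -4.38 and 0.42 in J/B, and *Dazl* in B/J between -3.41 and 0.23. *Mael* was 0.39 on library totals, 0.48 on housekeeping genes and 0.51 in the libraries numbered 1 alone over both crosses. In B/J it was -0.053 with voom and -1.26 without both NPC libraries numbered 1, where *Dazl* was 0.23, and in J/B it was 0.17 on housekeeping genes. The causes were not tested. Of the other lists, germline genes held by methylation had 5 lower on housekeeping genes, and 2 higher on library totals, housekeeping genes and with DESeq2, and over all settings run 5 to 8 lower and 0 to 3 higher (3 with either replicate block and without ESC J/B replicate 1). Primordial germ cell factors had 3 lower and 2 higher on both scalings, 1 higher with RLE factors and 2 with DESeq2 and voom, and over all settings 3 to 5 lower (3 also without ESC B/J replicate 1, NPC B/J replicate 1 or NPC J/B replicate 1) and 0 to 2 higher. Methylation enzymes had 2 higher on housekeeping genes, and over all settings 6 to 8 lower and 1 to 2 higher.

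Deviations from the group means correlated at 0.0606 in B/J and 0.0498 in J/B between ESCs and NPCs. With 2 libraries a group, this cannot settle whether the replicate numbers pair the stages. Between the crosses the same numbers correlated at 0.638 in ESCs and 0.480 in NPCs, with only 2 numbers. With a replicate block, 6 germline genes were called lower over both crosses (*Dazl* was -2.82, edgeR adjusted p = 0.0767), and *Mael* was -0.34 in B/J. With a block within each stage, 7 were called over both crosses and 5 in B/J, *Dazl* and *Hormad1* among them. *Mael* was -0.13 in B/J there. With 2 libraries a group, only 0 to 22 counts in a library for *Tex101* and *Asz1* limit what those genes can show.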
